A study of Homo sapiens with 6 samples.

Results

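MHC class I molecules display peptides from inside the cell to CD8 T cells and natural killer cells. Each is made of a heavy chain, encoded by an HLA gene, and the light chain beta-2 microglobulin, encoded by B2M. Peptides are cut by the proteasome, carried into the endoplasmic reticulum by the transporter TAP1/TAP2 and placed on the heavy chain with the help of tapasin, encoded by TAPBP, while NLRC5 is a transactivator that drives transcription of class I genes. Tumor cells, those of breast cancer among them, are known to lower this machinery, and interferon gamma raises it.

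The levels of 9 of these genes (HLA-B, HLA-C, HLA-E, HLA-F, B2M, TAP1, TAP2, TAPBP and NLRC5) were examined in MDA-MB-231, an established human line of triple-negative breast cancer. They were chosen by symbol in a table of 61806 genes, and all 9 were found and tested. The line had been infected with lentiviruses and selected with puromycin, and 3 derived lines were sequenced, each in 2 libraries: shNC, the control, and shHMGA2-1 and shHMGA2-2, each with a different short hairpin RNA against HMGA2, an architectural chromatin protein. The study's methods describe knockdown lines grown from a single clone and do not state this for shNC, so that effects of the shRNA and differences between clones cannot be told apart. The library names of the controls read WT where their titles read shNC, and those of shHMGA2-1 carry SH2; the titles were followed here. Nothing in the labels says that the libraries of a line came from separate cultures, so that p-values measure the spread between libraries, which may be technical.

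The libraries held 16461178 to 17167293 counts. HMGA2 had 2126 and 2161 counts in shNC, compared with 858 and 989 in shHMGA2-1, and 435 and 482 in shHMGA2-2. It fell by 1.29 on the log2 scale in shHMGA2-1 and by 2.31 in shHMGA2-2 (edgeR quasi-likelihood test, adjusted p = 2.17e-11 and 2.11e-16). Of the markers of the line, VIM stood at 411 to 432 FPKM (counts scaled to the exon length of the gene and the total of the library), CD44 at 64.9 to 95.8 and EGFR at 11.9 to 33.6, while ESR1 and PGR had at most 12 counts in any library. These markers moved with the line. EGFR fell by 0.75 on the log2 scale in shHMGA2-1 and 1.54 in shHMGA2-2 (edgeR, adjusted p = 2.06e-09 and 8.12e-16). CD44 rose by 0.25 and 0.41 (adjusted p = 0.00161 and 1.76e-06). VIM fell by 0.17 in shHMGA2-2 (adjusted p = 0.0077) and did not pass the test in shHMGA2-1 (0.306). The keratin gene KRT8 rose 2.38-fold in shHMGA2-2 (adjusted p = 1.65e-12) and did not pass in shHMGA2-1 (0.448). KRT18 fell by 0.32 on the log2 scale in shHMGA2-1 (adjusted p = 0.0025) and did not pass in shHMGA2-2 (0.129). ERBB2, the other receptor that triple-negative cells lack, was detected at 6.43 to 10.8 FPKM. It rose 1.38-fold in shHMGA2-1 and 1.36-fold in shHMGA2-2 (adjusted p = 0.000479 and 0.000282). Leukocytes carry much class I RNA, and of 10 leukocyte markers 3 to 7 were at 0 counts in each library. PTPRC, the gene of CD45, had 0 to 2 counts, and CD3E, MS4A1 and SPI1 had 0 in every library. The summed level of the list was 0.47 and 0.68 FPKM in shNC, next to 1.18 and 1.07 in shHMGA2-1 and 1.38 and 1.26 in shHMGA2-2, of which CD8A alone had 11 and 23, 61 and 63, and 59 and 72 counts. Their part in the results was not tested. In bulk RNA, fewer cells with a transcript and less of it in each cell cannot be told apart.

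To show the starts of the genes whose RNA is described, the 190 bases before the RefSeq start of each gene were read from a promoter table (GRCh38.p14) for 7 of the 9 genes. HLA-E and NLRC5 had no entry. For TAP1, which has 2 starts in the table, the outer one was taken. Each sequence runs 5′ to 3′ on the strand of the gene and ends at the base before the start, and capitals mark matches, on either strand, to 4 short motifs: GGGGATTC, the first letters of the kappaB site of class I genes; the core of the interferon-stimulated response element, spelled GAAA, any 2 bases, GAAA; the CCAAT box, CCAAT; and TGACG, the first letters of the cyclic AMP response element.
HLA-B, chr6:31357180-31357369, minus strand: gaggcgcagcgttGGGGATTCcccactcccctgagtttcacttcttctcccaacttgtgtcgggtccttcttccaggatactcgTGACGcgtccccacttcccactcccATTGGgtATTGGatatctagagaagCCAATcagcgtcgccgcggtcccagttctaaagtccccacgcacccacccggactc
HLA-C, chr6:31272093-31272282, minus strand: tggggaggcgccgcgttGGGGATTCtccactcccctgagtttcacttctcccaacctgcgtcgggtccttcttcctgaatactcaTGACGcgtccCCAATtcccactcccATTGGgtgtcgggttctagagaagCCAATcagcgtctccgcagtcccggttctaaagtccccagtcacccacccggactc
HLA-F, chr6:29723244-29723433, plus strand: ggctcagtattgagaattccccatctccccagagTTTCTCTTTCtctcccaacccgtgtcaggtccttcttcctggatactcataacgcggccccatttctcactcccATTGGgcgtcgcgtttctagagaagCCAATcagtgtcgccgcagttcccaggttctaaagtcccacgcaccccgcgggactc
B2M, chr15:44711327-44711516, plus strand: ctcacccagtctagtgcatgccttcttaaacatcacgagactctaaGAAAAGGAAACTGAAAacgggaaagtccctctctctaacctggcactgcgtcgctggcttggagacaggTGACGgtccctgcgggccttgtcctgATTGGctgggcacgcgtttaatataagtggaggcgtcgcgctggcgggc
TAP1, chr6:32853705-32853894, minus strand: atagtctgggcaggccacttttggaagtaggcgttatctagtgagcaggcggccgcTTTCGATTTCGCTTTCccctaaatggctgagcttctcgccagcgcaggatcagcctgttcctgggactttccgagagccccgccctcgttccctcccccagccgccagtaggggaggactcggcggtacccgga
TAP2, chr6:32838740-32838929, minus strand: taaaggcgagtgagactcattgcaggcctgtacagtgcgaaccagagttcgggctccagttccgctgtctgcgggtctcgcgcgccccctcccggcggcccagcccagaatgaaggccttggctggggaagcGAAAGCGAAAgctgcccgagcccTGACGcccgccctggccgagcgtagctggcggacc
TAPBP, chr6:33314079-33314268, minus strand: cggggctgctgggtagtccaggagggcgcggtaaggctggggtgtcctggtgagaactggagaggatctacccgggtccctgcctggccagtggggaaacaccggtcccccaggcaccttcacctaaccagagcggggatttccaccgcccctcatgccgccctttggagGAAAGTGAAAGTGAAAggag

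The windows of HLA-B and HLA-C were identical at 87.6% of aligned positions, and that of HLA-F at 81.9% to HLA-B and 79.7% to HLA-C. GGGGATTC occurred in HLA-B, beginning 177 bases before the start, and in HLA-C, beginning 173 bases before it, and in 0.598% of all 35116 promoters of the table. This motif was spelled after class I genes, so its match there followed from that choice. Other spellings of a kappaB site were not searched in the 7 windows. HLA-F had a match to the core of the interferon-stimulated element on the other strand, 156 bases before its start. B2M, TAP1, TAP2 and TAPBP had a match too, which makes 5 of the 7 windows against 2.29% of all promoters. In B2M, TAP1 and TAPBP a pair of such matches overlapped each other. The machinery was known to be raised by interferon gamma when this element was chosen for the search. Its share of the windows is therefore not an independent test of enrichment. CCAAT was found in HLA-B, HLA-C, HLA-F and B2M and in 27% of all promoters, and TGACG in HLA-B, HLA-C, B2M and TAP2 and in 17.8%. These are exact matches of letters, and no binding was measured. A window without a match, such as those of HLA-B and HLA-C for the interferon-stimulated element, may hold the element in another spelling.

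Among the heavy chains, HLA-B and HLA-C rose in both knockdown lines and more so in shHMGA2-2. HLA-F rose from a trace in both, and HLA-E, the most abundant heavy chain gene of the 4 in shNC, differed from shNC by at most 1.13-fold. Together with the other genes of the group, 3 of 9 rose and 4 fell in shHMGA2-1 (adjusted p under 0.05), where 15.8% of the 16110 genes tested rose and 17.6% fell. In shHMGA2-2, 5 of 9 rose and 4 fell, where 29.5% of the genes tested rose and 29.2% fell. The median log2 fold change of the 9 was -0.15 in shHMGA2-1 and 0.42 in shHMGA2-2, beside 0.01 and 0.03 over all genes tested. HLA-F passed the filter on low counts only through the knockdown lines, since both shNC libraries lay under the limit of 0.589 CPM (counts scaled to the library total). Fold changes were fitted after TMM, a further scaling of the library totals, which FPKM does not use. In shHMGA2-2 the fitted falls of HLA-E, B2M and TAP2 are therefore larger than their FPKM show. B2M had means of 461 CPM in shNC and 389 in shHMGA2-2 after TMM, beside 141.5 and 129.5 FPKM.

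**Figure D1:**
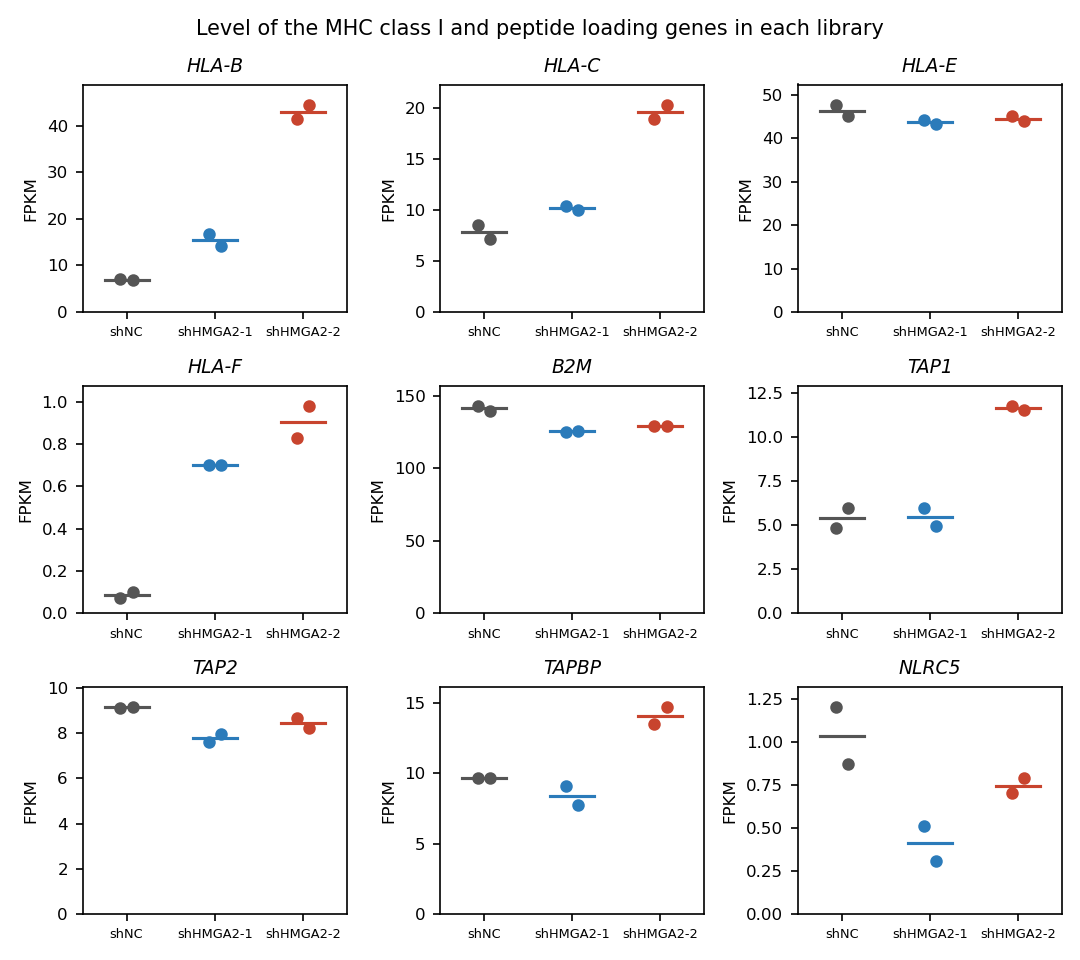
Level (FPKM) of each of the 9 genes in the 3 lines, one panel per gene with its own axis from 0. Points are libraries and lines are means of 2. HLA-B lies at 6.82 to 7.01 in shNC and 41.5 to 44.4 in shHMGA2-2, while HLA-E stays between 43.4 and 47.7 in all 6 libraries.

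HLA-B (ENSG00000234745, chromosome 6, 31353872 to 31367067, minus strand, GRCh38) encodes a classical heavy chain that presents peptides to CD8 T cells. Its level was 7.01 and 6.82 FPKM in shNC, against 16.8 and 14.2 in shHMGA2-1 and 41.5 and 44.4 in shHMGA2-2, from 550 and 535, 1332 and 1123, and 3157 and 3406 counts. The lines did not overlap, and the order was shNC, shHMGA2-1, shHMGA2-2. HLA-B was 2.14-fold higher in shHMGA2-1 than in shNC (95% interval 1.89 to 2.43, adjusted p = 4.71e-10) and 5.72-fold higher in shHMGA2-2 (5.05 to 6.47, adjusted p = 1.1e-17). Between the knockdown lines it was 2.67-fold higher in shHMGA2-2 (2.38 to 3.00, adjusted p = 2.44e-13).

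HLA-C (ENSG00000204525, chromosome 6, 31268749 to 31272130, minus strand) is the classical heavy chain that is also the main ligand of inhibitory receptors of natural killer cells. It stood at 8.55 and 7.19 FPKM in shNC, compared with 10.4 and 9.99 in shHMGA2-1 and 18.9 and 20.2 in shHMGA2-2. All 3 lines were again separate, with a smaller step from shNC to shHMGA2-1 than for HLA-B. HLA-C was 2.29-fold higher in shHMGA2-2 than in shNC (1.97 to 2.66, adjusted p = 6.4e-10) and 1.85-fold higher than in shHMGA2-1 (1.60 to 2.14, adjusted p = 1.01e-07). The rise in shHMGA2-1 was 1.24-fold (1.06 to 1.45, adjusted p = 0.0324). That call was lost with DESeq2 (adjusted p = 0.0957), without the filter on low counts (0.0734), and without shNC replicate 2 (0.381), shHMGA2-1 replicate 1 (0.0624), shHMGA2-2 replicate 1 (0.0588) or shHMGA2-2 replicate 2 (0.0624). HLA-B and HLA-C are near-identical genes, and how reads that fit both were counted is not given in the sources used here, so that the split between them is uncertain.

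HLA-F (ENSG00000204642, chromosome 6, 29722775 to 29738528, plus strand) encodes a nonclassical heavy chain that natural killer cell receptors recognise. Its counts were 5 and 7 in shNC, next to 52 and 52 in shHMGA2-1 and 59 and 70 in shHMGA2-2, or 0.07 and 0.1, 0.7 and 0.7, and 0.83 and 0.98 FPKM. Every knockdown library was far above both shNC libraries, and the level remained under 1 FPKM. The fitted difference from shNC was 8.07-fold in shHMGA2-1 (4.58 to 14.2, adjusted p = 1.5e-06) and 9.98-fold in shHMGA2-2 (5.76 to 17.3, adjusted p = 5.93e-08). Between the knockdown lines it was 1.24-fold (0.852 to 1.80), which did not pass the test (adjusted p = 0.345). The antisense gene HLA-F-AS1 overlaps 11928 bases of HLA-F and had 12 and 11 counts in shNC, against 62 and 41 in shHMGA2-1 and 47 and 74 in shHMGA2-2. The strand setting of the counting is not given in the sources used here, so reads of HLA-F and HLA-F-AS1 cannot be told apart.

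HLA-E (ENSG00000204592, chromosome 6, 30489509 to 30494194, plus strand) encodes a nonclassical heavy chain that presents leader peptides of other heavy chains to the NKG2A receptor. It was at 47.7 and 45.2 FPKM in shNC, compared with 44.2 and 43.4 in shHMGA2-1 and 45.1 and 44.0 in shHMGA2-2. The spread over all libraries was small beside that of HLA-B. HLA-E fell by 0.18 on the log2 scale in shHMGA2-2 (SE 0.07, adjusted p = 0.032), and the value of -0.15 in shHMGA2-1 did not pass the test (adjusted p = 0.111). The call in shHMGA2-2 was lost with upper quartile scaling (adjusted p = 0.437), without shNC replicate 1 (0.239) or replicate 2 (0.0812), and without shHMGA2-2 replicate 1 (0.0632) or replicate 2 (0.185). The 95% interval of the difference between the knockdown lines was -0.18 to 0.12 on the log2 scale.

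The make-up of the heavy chain RNA differed between the lines. The summed level of the 4 genes was 63.3 and 59.3 FPKM in shNC, next to 72.1 and 68.2 in shHMGA2-1 and 106 and 110.0 in shHMGA2-2. HLA-B made up 11.1% and 11.5% of this sum in shNC, against 23.3% and 20.8% in shHMGA2-1 and 39% and 40.5% in shHMGA2-2. HLA-E made up 75.3% and 76.2% in shNC and 42.4% and 40.1% in shHMGA2-2. HLA-C took 12.1% to 14.6% in shNC and shHMGA2-1 and 17.8% and 18.5% in shHMGA2-2. In FPKM, HLA-C stood above HLA-B in shNC, with libraries that did not overlap, and under it in both knockdown lines. In counts HLA-B was above HLA-C in shNC as well, with 550 and 535 against 364 and 306. The order in shNC and the shares of the sum thus rest on the deposited exon lengths, 4623 bases for HLA-B and 2507 for HLA-C. In shHMGA2-2 the libraries of HLA-E and HLA-B overlapped.

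**Figure D2:**
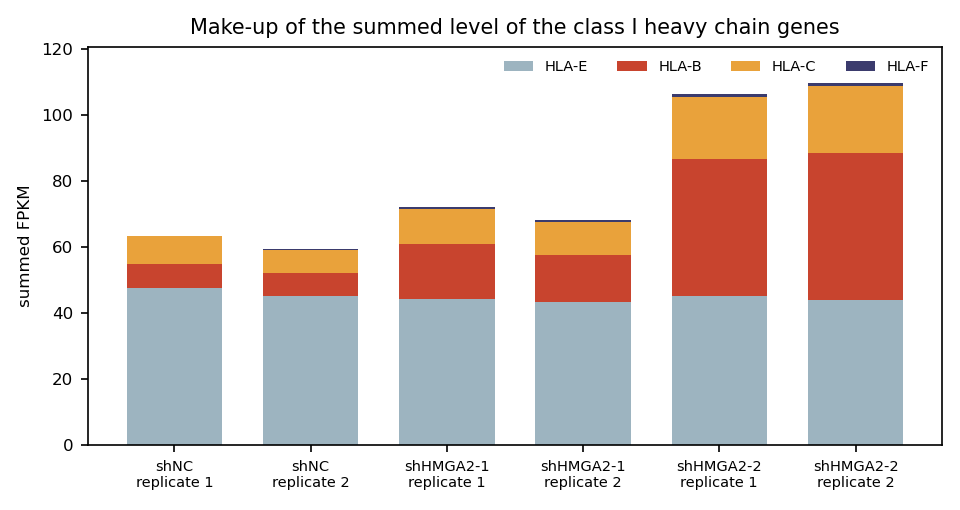
Summed level (FPKM) of HLA-E, HLA-B, HLA-C and HLA-F in each library, stacked by gene. The sum grows from 59.3 to 63.3 in shNC to 106 and 110.0 in shHMGA2-2, and the HLA-B part grows while the HLA-E part stays near its level in shNC.

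The light chain did not move with HLA-B. B2M (ENSG00000166710, chromosome 15, 44711358 to 44718851, plus strand), which every class I heavy chain needs to fold, was the most abundant of the 9 genes in each line. It stood at 143 and 139.9 FPKM in shNC, compared with 125 and 126 in shHMGA2-1 and 129.5 and 129.6 in shHMGA2-2. Both knockdown lines lay under shNC and next to each other. B2M fell by 0.24 on the log2 scale in shHMGA2-1 (SE 0.06, adjusted p = 0.00327) and by 0.25 in shHMGA2-2 (SE 0.06, adjusted p = 0.000978), and the interval of the difference between the knockdown lines was -0.13 to 0.11. Without shNC replicate 1 the call in shHMGA2-1 was lost (adjusted p = 0.0766), and with upper quartile scaling that in shHMGA2-2 (0.0532). The ratio of B2M to the summed heavy chain level was 2.26 and 2.36 in shNC, next to 1.74 and 1.85 in shHMGA2-1 and 1.22 and 1.18 in shHMGA2-2.

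The subunits of the peptide transporter differed in shHMGA2-2. TAP1 (ENSG00000168394, chromosome 6, 32845209 to 32853816, minus strand) had 4.80 and 5.93 FPKM in shNC, against 5.93 and 4.94 in shHMGA2-1 and 11.7 and 11.5 in shHMGA2-2. The shHMGA2-1 libraries overlapped those of shNC, and both shHMGA2-2 libraries were above all others. TAP1 was 2.00-fold higher in shHMGA2-2 than in shNC (1.71 to 2.33, adjusted p = 2.57e-08) and 2.06-fold higher than in shHMGA2-1 (1.77 to 2.41, adjusted p = 1.75e-08). In shHMGA2-1 the log2 fold change was -0.05 (95% interval -0.28 to 0.19, adjusted p = 0.802), and its sign turned with upper quartile scaling (0.02). PSMB9 is listed across the whole 8608 bases of TAP1 on the other strand and had 115 and 135 counts in shNC, compared with 95 and 66 in shHMGA2-1 and 103 and 109 in shHMGA2-2, against 386 and 477, 482 and 401, and 915 and 907 for TAP1.

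TAP2 (ENSG00000204267, chromosome 6, 32821833 to 32838739, minus strand), the partner of TAP1 in the transporter, had 9.13 and 9.15 FPKM in shNC, next to 7.62 and 7.97 in shHMGA2-1 and 8.67 and 8.23 in shHMGA2-2. It fell by 0.29 on the log2 scale in shHMGA2-1 (SE 0.08, adjusted p = 0.0047) and by 0.23 in shHMGA2-2 (SE 0.08, adjusted p = 0.0127). The first call was lost without shNC replicate 1 (adjusted p = 0.058) or replicate 2 (0.0673), and the second with upper quartile scaling (0.19) and without shNC replicate 1 (0.0766), shNC replicate 2 (0.0927) or shHMGA2-2 replicate 2 (0.136). In FPKM, TAP1 was at 0.526 and 0.648 times the level of TAP2 in shNC, 0.778 and 0.62 times in shHMGA2-1 and 1.35 and 1.40 times in shHMGA2-2. These ratios rest on the deposited exon lengths, 4738 bases for TAP1 and 10357 for TAP2. In counts TAP1 stayed under TAP2 in every library.

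TAPBP (ENSG00000231925, chromosome 6, 33299694 to 33314284, minus strand), whose product tapasin bridges the transporter and the heavy chain, moved one way in each knockdown line. Its level was 9.69 and 9.68 FPKM in shNC, against 9.10 and 7.75 in shHMGA2-1 and 13.5 and 14.7 in shHMGA2-2. Both shHMGA2-1 libraries were under shNC and both shHMGA2-2 libraries above it. TAPBP was 1.34-fold higher in shHMGA2-2 than in shNC (1.19 to 1.51, adjusted p = 0.000141) and 1.61-fold higher than in shHMGA2-1 (1.43 to 1.82, adjusted p = 2.86e-07). In shHMGA2-1 it fell by 0.27 on the log2 scale (SE 0.09, adjusted p = 0.0194). That fall was lost with upper quartile scaling (adjusted p = 0.0754) and without shNC replicate 1 (0.122), shNC replicate 2 (0.13) or shHMGA2-1 replicate 2 (0.102).

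NLRC5 (ENSG00000140853, chromosome 16, 56989485 to 57083531, plus strand), the class I transactivator, went the other way from HLA-B. It had 252 and 182 counts in shNC, compared with 109 and 65 in shHMGA2-1 and 143 and 162 in shHMGA2-2, or 1.20 and 0.87, 0.51 and 0.31, and 0.70 and 0.79 FPKM. All knockdown libraries were under both shNC libraries, those of shHMGA2-1 the lowest. NLRC5 fell by 1.40 on the log2 scale in shHMGA2-1 (SE 0.20, adjusted p = 5.13e-06) and by 0.59 in shHMGA2-2 (SE 0.18, adjusted p = 0.00788). The call in shHMGA2-2 was lost without shNC replicate 1 (log2 fold change -0.34, adjusted p = 0.214) or shHMGA2-2 replicate 1 (adjusted p = 0.0941). Between the knockdown lines NLRC5 was 1.75-fold higher in shHMGA2-2 (1.30 to 2.35, adjusted p = 0.0021), a call that was lost without shHMGA2-1 replicate 2 (log2 fold change 0.50, adjusted p = 0.0537).

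**Figure D3:**
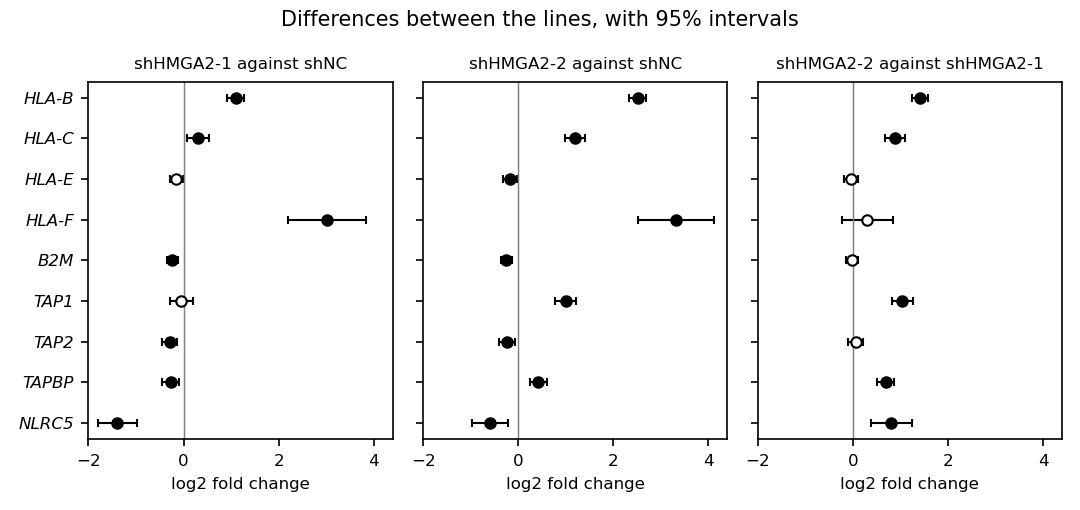
Log2 fold change of each gene in the 3 comparisons of the lines, with 95% intervals; filled points have an adjusted p under 0.05 (edgeR). HLA-B, HLA-C, TAP1, TAPBP and NLRC5 are higher in shHMGA2-2 than in shHMGA2-1, and the intervals of HLA-E, HLA-F, B2M and TAP2 in that comparison include 0.

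Between the knockdown lines, 5 of the 9 genes were higher in shHMGA2-2, where 24.5% of all genes tested were higher and 25.7% lower. None of the 9 was lower by edgeR, at an unadjusted p under 0.05 as well (0 genes) and by DESeq2 (0). These 5 were HLA-B, HLA-C, TAP1, TAPBP and NLRC5. The comparisons of the lines with shNC share the control libraries, and their values are given side by side above.

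The 4 shHMGA2 libraries were also pooled against the 2 of shNC, so that the difference between the knockdown lines counted as error. There 2.34% of genes tested rose and 2.92% fell. HLA-F passed the edgeR test (log2 fold change 3.17, SE 0.32, adjusted p = 0.0076). It had passed the filter on low counts only through the knockdown lines, so that the filter favored a rise. The call was lost without shNC replicate 1 (adjusted p = 0.127) or replicate 2 (0.108). HLA-B had a pooled log2 fold change of 1.97 (SE 0.54, adjusted p = 0.0894), HLA-C of 0.82 (adjusted p = 0.187) and B2M of -0.24 (adjusted p = 0.107). None of the 9 fell by edgeR, while 3 were lower at an unadjusted p under 0.05 and 1, B2M, fell by DESeq2 (adjusted p = 0.00487). DESeq2 also called HLA-B (adjusted p = 0.000586).

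Of 5 genes of the immunoproteasome and its activator (PSMB8, PSMB9, PSMB10, PSME1 and PSME2), 2 fell in shHMGA2-1, or 40% beside 17.6% of all genes tested, and 1 in shHMGA2-2, or 20% beside 29.2%. The median log2 fold change of the list was -0.42 and -0.32. None of the 5 rose in either line by edgeR, at an unadjusted p under 0.05 as well (0) and by DESeq2 (0). PSMB8, a catalytic subunit that interferon gamma induces, had 590 and 606 counts in shNC, next to 494 and 449 in shHMGA2-1 and 368 and 400 in shHMGA2-2. It fell by 0.42 on the log2 scale in shHMGA2-1 (adjusted p = 0.00199) and by 0.72 in shHMGA2-2 (adjusted p = 1.65e-06). PSMB9, a catalytic subunit whose gene is listed across TAP1 on the other strand, so that, with the strand setting not given, reads of the overlap cannot be told apart, fell by 0.71 in shHMGA2-1 (adjusted p = 0.00611), a call lost without shNC replicate 2 (0.094) or shHMGA2-1 replicate 2 (0.082), and had a log2 fold change of -0.32 in shHMGA2-2 (adjusted p = 0.15).

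The catalytic subunits of the standard proteasome, which PSMB8, PSMB9 and PSMB10 replace, were higher in shHMGA2-2 in 3 of 3 genes (PSMB5, PSMB6 and PSMB7), where 29.5% of all genes tested were higher. PSMB7 had 90.8 and 91.5 FPKM in shNC, against 112 and 102 in shHMGA2-1 and 191 and 201 in shHMGA2-2, and rose 1.98-fold in shHMGA2-2 (1.80 to 2.17, adjusted p = 3.35e-12). PSMB6 rose 1.39-fold in shHMGA2-2 (1.25 to 1.55, adjusted p = 5.96e-06). In shHMGA2-1, where 15.8% of all genes rose, 1 of the 3 did, PSMB6 by 1.16-fold (adjusted p = 0.0261), which DESeq2 did not call (adjusted p = 0.0576) and which was lost without the filter on low counts (0.0582) and without shNC replicate 1 (0.0759) or replicate 2 (0.308), shHMGA2-1 replicate 1 (0.102), and shHMGA2-2 replicate 1 (0.0547) or replicate 2 (0.0598).

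Of 6 genes for chaperones and peptide trimming in the endoplasmic reticulum (CALR, CANX, PDIA3, ERAP1, ERAP2 and TAPBPL), 3 fell in shHMGA2-1, or 50% beside 17.6% of all genes tested, and 2 in shHMGA2-2, or 33.3% beside 29.2%. DESeq2 called 0 of the 6 lower in shHMGA2-2. The median log2 fold change was -0.20 and -0.14. ERAP2, an aminopeptidase that trims peptides to the length class I molecules bind, had 203 and 187 counts in shNC, compared with 109 and 111 in shHMGA2-1 and 160 and 159 in shHMGA2-2. It fell by 0.90 on the log2 scale in shHMGA2-1 (adjusted p = 6.24e-05) and by 0.37 in shHMGA2-2 (adjusted p = 0.0346), and DESeq2 did not call the latter (adjusted p = 0.122). That call was also lost with upper quartile scaling (adjusted p = 0.143) and without shNC replicate 1 (0.17), shNC replicate 2 (0.0629), shHMGA2-2 replicate 1 (0.0835) or shHMGA2-2 replicate 2 (0.123). ERAP1, its relative, fell by 0.59 in shHMGA2-1 (adjusted p = 2.37e-05) and had a log2 fold change of -0.15 in shHMGA2-2 (adjusted p = 0.159).

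Of 12 genes of transcription factors known to act on class I promoters (the RFX and NF-Y subunits, CREB1, ATF1, IRF1, IRF2, RELA and NFKB1), 1 rose and 5 fell in shHMGA2-1, or 8.33% and 41.7% beside 15.8% and 17.6% of all genes tested. In shHMGA2-2, 4 rose and 1 fell, or 33.3% and 8.33% beside 29.5% and 29.2%. RFX5, the subunit of the RFX complex that contacts DNA, rose by 0.45 on the log2 scale in shHMGA2-1 (SE 0.08, adjusted p = 8.94e-05) and by 0.24 in shHMGA2-2 (SE 0.08, adjusted p = 0.0129). The latter call was lost without shNC replicate 2 (adjusted p = 0.183) or shHMGA2-2 replicate 2 (0.113). RFXAP, another subunit, had 132 and 100 counts in shNC, next to 137 and 187 in shHMGA2-1 and 201 and 220 in shHMGA2-2, and rose 1.72-fold in shHMGA2-2 (1.34 to 2.203, adjusted p = 0.000491). IRF1, which binds the interferon-stimulated response element, had 215 and 213 counts in shNC, against 162 and 126 in shHMGA2-1 and 299 and 310 in shHMGA2-2. IRF1 lay under shNC in one line and above it in the other, like TAPBP. It fell by 0.65 on the log2 scale in shHMGA2-1 (adjusted p = 0.00114), rose by 0.43 in shHMGA2-2 (adjusted p = 0.00794) and was 2.11-fold higher in shHMGA2-2 than in shHMGA2-1 (1.73 to 2.58, adjusted p = 6.33e-07). The rise in shHMGA2-2 was lost without shNC replicate 1 (adjusted p = 0.0504), shNC replicate 2 (0.0545) or shHMGA2-2 replicate 2 (0.0539).

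Of 5 genes of the interferon gamma receptor and its signalling (IFNGR1, IFNGR2, JAK1, JAK2 and SOCS1), 4 were tested. In shHMGA2-1, 1 of the 4 rose and 1 fell, beside 15.8% and 17.6% of all genes tested, and in shHMGA2-2, 3 rose, beside 29.5%. IFNGR1, the ligand-binding chain of the receptor, had 9.71 and 10.1 FPKM in shNC, compared with 10.1 and 10.3 in shHMGA2-1 and 16.7 and 16.1 in shHMGA2-2, and rose 1.52-fold in shHMGA2-2 (1.34 to 1.74, adjusted p = 3.68e-06). Its log2 fold change in shHMGA2-1 was -0.02 (adjusted p = 0.882). IFNGR2, the accessory chain, rose 1.48-fold in shHMGA2-1 (1.29 to 1.70, adjusted p = 6.71e-05) and 1.33-fold in shHMGA2-2 (1.15 to 1.53, adjusted p = 0.000958).

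Of 10 genes for surface proteins with a class I fold that do not present peptides to T cells in the classical way, 8 were tested. In shHMGA2-1, 5 rose and 1 fell, or 62.5% and 12.5% beside 15.8% and 17.6% of all genes tested. In shHMGA2-2, 3 rose and 2 fell, or 37.5% and 25% beside 29.5% and 29.2%. ULBP2, a ligand of the NKG2D receptor of natural killer cells, had 119 and 140 counts in shNC, next to 276 and 243 in shHMGA2-1 and 498 and 507 in shHMGA2-2. It rose 1.90-fold in shHMGA2-1 (1.55 to 2.31, adjusted p = 1.12e-05) and 3.67-fold in shHMGA2-2 (3.04 to 4.42, adjusted p = 8.24e-12). FCGRT, the heavy chain of the neonatal Fc receptor, which also pairs with B2M, had 6 and 3 counts in shNC, against 22 and 28 in shHMGA2-1 and 111 and 104 in shHMGA2-2, and passed the filter on low counts only through the knockdown lines. Its fitted difference from shNC was 5.15-fold in shHMGA2-1 (2.58 to 10.3, adjusted p = 0.000391) and 22.0-fold in shHMGA2-2 (12.8 to 37.9, adjusted p = 2.79e-10).

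**Figure D4:**
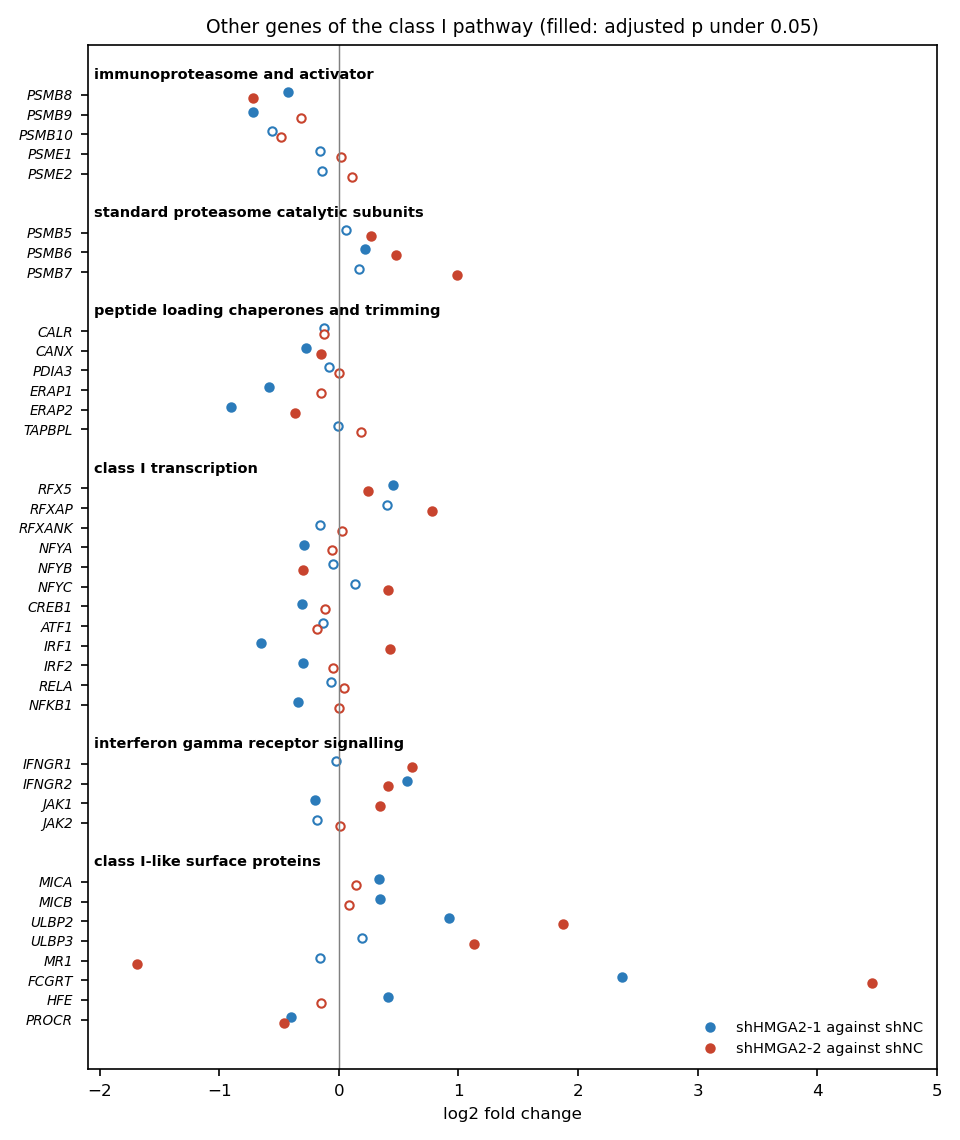
Log2 fold change against shNC of the tested genes of the other pathway lists, by list; filled points have an adjusted p under 0.05. PSMB8 lies under 0 in both lines, PSMB7 above 0 in shHMGA2-2, IRF1 on opposite sides, and FCGRT farthest to the right at 4.46 in shHMGA2-2.

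Of the 9 genes, 7 lie within 3.59 Mb of chromosome 6, from HLA-F at 29722775 to the end of TAPBP at 33314284, so they share their neighborhood with other genes of the MHC. Of the other 125 tested genes there, 25 rose and 18 fell in shHMGA2-1, or 20% and 14.4% beside 15.8% and 17.6% of all genes tested. In shHMGA2-2, 48 rose and 21 fell, or 38.4% and 16.8% beside 29.5% and 29.2%. In shHMGA2-1, 8 of the 125, or 6.4%, rose at least 2-fold, beside 4.89% of all genes tested, and in shHMGA2-2, 26, or 20.8%, beside 11.7%. The 26 include 7 genes of MHC class II with a log2 fold change over 5: HLA-DRA, HLA-DRB1, HLA-DRB5, HLA-DMB, HLA-DOA, HLA-DPA1 and HLA-DPB1. Of these, 5 had at most 3 reads in shNC in all, so they passed the filter on low counts through the knockdown lines. HLA-DMA, another class II gene, rose by 3.80 on the log2 scale in shHMGA2-2 (edgeR, adjusted p = 1.85e-12). Whether the share that rose at least 2-fold stays above that of all genes without class II genes was not tested. The median log2 fold change of the 125 was 0.11 and 0.15. HLA-B, at 2.52 on the log2 scale in shHMGA2-2, and HLA-E, at -0.18, lie in the same stretch.

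**Figure D5:**
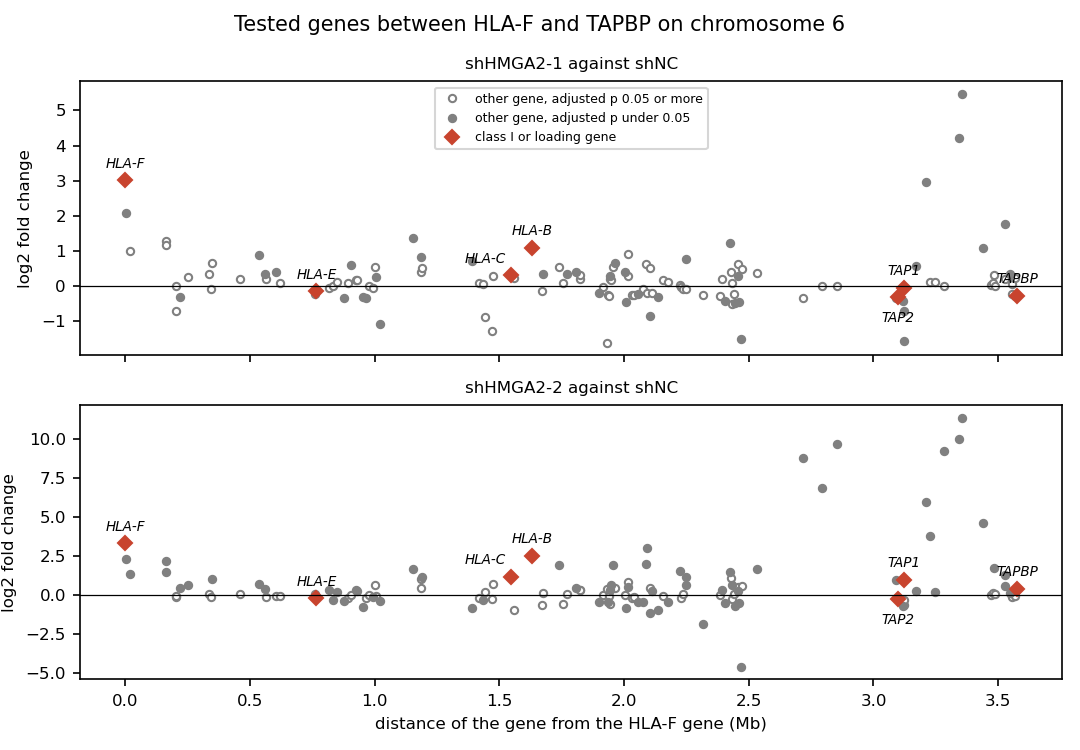
Log2 fold change against shNC of the 132 tested genes from HLA-F to TAPBP, by distance from HLA-F in Mb, in shHMGA2-1 (top) and shHMGA2-2 (bottom, with a longer vertical axis). Of the 7 genes over 5 in shHMGA2-2, 5 had at most 3 reads in shNC in all, so that their height depends on the prior count of the fit.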

How the data were processed

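RNA of 6 libraries was sequenced after mRNA capture, 2 per line. Per the submitters' processing notes, reads were handled with HISAT2 version 2.2.1 and HTSeq version 0.6.1 on GRCh38.p13. The annotation, the strand setting and the handling of reads with several matches are not given in the sources used here. The authors deposited raw counts without normalization, and beside them FPKM values. The deposited FPKM is the count scaled to exonic length and library total, and recomputing it from the counts matched 100% of values within rounding. Positions and exonic sizes were taken as deposited. Sample columns that were not used numbered 0.

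Counts were tested in R version 4.3.3 with edgeR version 4.0.16: TMM scaling (factors 0.958 to 1.05), filterByExpr by group, the quasi-likelihood test, and Benjamini-Hochberg adjustment over 16110 genes. The lines were compared in a model with 3 groups, and the pooled libraries in a model with 2. SE and 95% intervals come from the same fit. A gene was called at an adjusted p under 0.05, two-sided. The script was tested on simulated data. Intervals cover the spread between libraries, and no molecular identifiers are described. Libraries of a line differed by more than sampling noise (chi-square per degree of freedom 2.06, 6.8 and 3.1).

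The genes described, the pathway lists and the markers were chosen with earlier results of these data known. A gene of these lists is not reported here. Beside the 9 genes and HMGA2, values are given for the 2 genes of each pathway list with the largest change in either line, and for genes of the immunoproteasome and transcription lists called in both lines. Alternatives were DESeq2 version 1.42.0, its size factors in edgeR, upper quartile scaling, no filter, the replicate number as a block, and leaving out each library, where the lone library left in a line was assumed to vary like the other groups. For the pooled comparison the mean of the shRNA contrasts was added after seeing the data. Same-numbered libraries did not deviate together, and no pairing was used.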

Additional observations from a re-analysis of the deposited data

Results flagged for a closer look

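HLA-E in shHMGA2-2 replicate 2 stood apart from the other knockdown libraries. Its 4 normalised values were 128, 128, 128 and 122 CPM (counts scaled to the library size), and the gap of the lowest to the next took 0.939 of the whole range, above the limit for 4 samples. The range itself was small, and chance marks about 1 in 20 groups of like samples in this way. These 4 libraries come from different lines, so that this rate is only a rough guide here.

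The effects of the knockdown lines differed for 5 of the 9 genes by the edgeR test between the lines. The log2 difference of shHMGA2-2 from shHMGA2-1 was 1.42 for HLA-B, 0.88 for HLA-C, 1.04 for TAP1, 0.69 for TAPBP and 0.81 for NLRC5, and for each both shHMGA2-2 libraries were above both of shHMGA2-1. HMGA2 was also lower in shHMGA2-2 than in shHMGA2-1, by a log2 difference of -1.01 (SE 0.10), and its part in these differences was not tested. The library names, the clones and the hairpins differ between the same lines, so that they cannot be told apart.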

How the results depend on the processing

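In shHMGA2-1 against shNC, the count of genes called was 5388, and 3283 to 5795 when one library was left out (3432 without shNC replicate 1 and 3283 without shNC replicate 2); of the 9 genes, 7 were called, and 4 to 6 without one library, 4 without either shNC library. In the pooled comparison, 848 genes were called, and 4 to 822 without one library, with 4 called without either shNC library. DESeq2 called 2268 genes and 3 of the 9, and averaging both shRNA contrasts in the 3-group model, an alternative added after seeing the data, 8015 and 8, against 1 of the 9. Between 0 and 1 of the 9 were called there without one library. With the replicate number as a block, 152 genes were called in the pooled comparison. The correlations of the deviations of same-numbered libraries were -0.02, 0.00213 and -0.1, so the numbers pair nothing, and the block ended, among the 9, only the call of HLA-E in shHMGA2-2 (adjusted p = 0.0674). It also ended those of PSMB6 in shHMGA2-1 (0.0517) and of HMGA2 in the pooled comparison (0.114). Upper quartile scaling raised the median log2 fold change of all genes by 0.115 in shHMGA2-2 against shNC.

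Several values near 0 changed sign. With upper quartile scaling the log2 fold change in shHMGA2-1 against shNC was 0.018 for TAP1 and 0.0401 for IFNGR1, and that between the knockdown lines was 0.0204 for HLA-E and 0.0398 for B2M. When one library was left out, the values ran from -0.196 to 0.115 for TAP1 and from -0.0595 to 0.0103 for IFNGR1 in shHMGA2-1, from -0.0656 to 0.00089 for HLA-E and from -0.0294 to 0.00719 for B2M between the knockdown lines, and from -0.0249 to 0.251 for the pooled TAPBP. The cause was not tested. HLA-B in each comparison of the lines kept its direction and call under every alternative run. So did HLA-F and NLRC5 in shHMGA2-1, HLA-C, HLA-F, TAP1 and TAPBP in shHMGA2-2, and HLA-C, TAP1 and TAPBP between the knockdown lines. With 2 libraries per line, small differences such as those of HLA-E and TAP2 are at the limit of what these data resolve.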
